A study of Mus musculus with 13 samples.

Results

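The immunoglobulin light chain variable (V) segments are the 103 rows of the node count table whose identifiers carry, in the GENCODE M21 annotation, a symbol starting with Igkv or Iglv and the gene type IG_V_gene, out of 49315 genes listed. They comprise 100 kappa segments on chromosome 6 and 3 lambda segments on chromosome 16, and for each of 6 tumour-draining lymph nodes (tdLN) the share of every segment in the summed light chain V counts was taken. Libraries of whole nodes, 3 Foxp3ΔJag1 and 3 Foxp3Ctrl, from female mice were sequenced in bulk, together with whole tumours, of which 3 Foxp3Ctrl tumours are used here. Foxp3ΔJag1 mice carried Foxp3eGFP-Cre-ERT2, a tamoxifen-inducible Cre recombinase made in Foxp3-expressing regulatory T cells, and floxed Jag1 (fl/fl), which encodes the Notch ligand Jagged-1. Foxp3Ctrl mice are labelled WT, while the series design names fl/wt animals with the same Cre, so their genotype is not settled by the labels. Mice of both groups were dosed with tamoxifen 5 times at 6 to 8 weeks of age (0.1 mg/g body weight, in corn oil), and 9 days later, at no more than 11 weeks, 200000 B16F10 cells were placed in the flank skin. B16F10 is a mouse melanoma line, every sample is labelled batch 1, and nothing in the labels says whether a library came from 1 node or from several.

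Each B cell carries 1 rearranged light chain gene in use, in which a V segment of the kappa or the lambda locus has been joined to a short joining (J) segment and is read together with a constant gene. The V segment provides most of the antigen-binding domain of the light chain, so the mixture of V transcripts in a node is a readout of which B cells and plasma cells are present and how much light chain RNA each makes. Plasma cells, the antibody-secreting stage, hold far more light chain transcript than resting B cells, and a clone that has expanded into plasma cells can therefore raise 1 segment in a bulk library. In mice the kappa locus holds a large array of V segments and serves most B cells, while the lambda locus of the C57BL/6 type has only a few.

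In GRCm38 the kappa members span chr6:67555497-70704177, ending just before Igkj1 at chr6:70722562-70722599, and the lambda members lie within chr16:19085017-19260859. All 103 members are annotated with 2 exons, the leader exon and the V exon. Iglv1 (chr16:19085017-19085500, minus strand) and Iglv2 (chr16:19260401-19260859, minus strand) are shown because the lambda results turn on telling them apart. Their germline coding sequences were identical at 96.9% of 351 aligned bases and differed at 11. The last 300 of these bases are printed, with capitals at the 8 that differ.
Iglv1: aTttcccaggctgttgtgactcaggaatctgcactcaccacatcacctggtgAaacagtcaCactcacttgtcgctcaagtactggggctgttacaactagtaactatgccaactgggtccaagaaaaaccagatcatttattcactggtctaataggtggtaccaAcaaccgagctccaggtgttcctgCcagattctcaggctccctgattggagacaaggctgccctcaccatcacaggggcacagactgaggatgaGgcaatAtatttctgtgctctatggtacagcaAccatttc
Iglv2: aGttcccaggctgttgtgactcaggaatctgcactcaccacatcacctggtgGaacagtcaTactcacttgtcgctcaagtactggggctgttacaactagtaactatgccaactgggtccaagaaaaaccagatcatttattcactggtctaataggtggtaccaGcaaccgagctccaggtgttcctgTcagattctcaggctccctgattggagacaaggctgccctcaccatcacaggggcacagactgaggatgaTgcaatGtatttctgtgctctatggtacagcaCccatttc
Counts of reads that fall between the differing bases cannot separate these 2 segments, and the longest run that they share is 104 bases. Iglv3, by contrast, was identical to Iglv1 at 61.0% of aligned bases.

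For the kappa segments that led a node or stood far above the other nodes in it, and for a few of those named in the genotype comparison, the last 120 coding bases are shown. They end in the germline part of the third complementarity-determining region (CDR3), the loop at the V-J junction, and capitals mark the last in-frame cysteine codon, after which the CDR3 begins. In 100 of the 103 members this codon lay within 30 bases of the coding end. The lambda segment Iglv3, shown with the kappa segments, is not among these 100. Its cysteine codon lay farther from the end and is followed in frame by a stop codon (taa). On the plus strand of chromosome 6 are Igkv3-2 (chr6:70698449-70699067), Igkv3-12 (chr6:70518250-70518849), Igkv3-7 (chr6:70607437-70608036), Igkv17-121 (chr6:68036812-68037318) and Igkv13-84 (chr6:68939602-68940067). On the minus strand are Igkv10-96 (chr6:68631963-68632442), Igkv5-43 (chr6:69823355-69823943), Igkv4-59 (chr6:69438218-69438757) and Igkv4-57-1 (chr6:69544359-69544907), and Iglv3 lies on the minus strand of chromosome 16 (chr16:19241207-19241690).
Igkv3-2: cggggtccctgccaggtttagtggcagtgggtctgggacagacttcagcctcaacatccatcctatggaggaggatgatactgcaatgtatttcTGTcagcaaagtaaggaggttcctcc
Igkv3-12: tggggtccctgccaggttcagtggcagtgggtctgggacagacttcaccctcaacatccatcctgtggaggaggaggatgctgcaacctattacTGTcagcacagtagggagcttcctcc
Igkv3-7: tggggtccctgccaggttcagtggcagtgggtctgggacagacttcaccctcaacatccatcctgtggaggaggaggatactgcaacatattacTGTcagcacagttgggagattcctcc
Igkv10-96: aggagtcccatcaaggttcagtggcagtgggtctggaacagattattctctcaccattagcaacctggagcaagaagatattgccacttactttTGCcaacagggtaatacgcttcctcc
Igkv5-43: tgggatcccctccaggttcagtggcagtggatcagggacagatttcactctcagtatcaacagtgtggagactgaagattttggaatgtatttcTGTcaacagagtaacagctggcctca
Igkv4-59: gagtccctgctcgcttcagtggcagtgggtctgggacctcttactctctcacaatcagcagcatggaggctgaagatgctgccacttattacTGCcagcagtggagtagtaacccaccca
Igkv4-57-1: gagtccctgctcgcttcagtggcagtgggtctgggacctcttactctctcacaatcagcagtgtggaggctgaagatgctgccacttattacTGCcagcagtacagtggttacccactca
Igkv17-121: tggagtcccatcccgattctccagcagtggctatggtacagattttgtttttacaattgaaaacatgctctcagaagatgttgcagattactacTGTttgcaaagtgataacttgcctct
Igkv13-84: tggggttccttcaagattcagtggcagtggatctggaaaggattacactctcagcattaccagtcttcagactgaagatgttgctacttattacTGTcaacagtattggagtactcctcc
Iglv3: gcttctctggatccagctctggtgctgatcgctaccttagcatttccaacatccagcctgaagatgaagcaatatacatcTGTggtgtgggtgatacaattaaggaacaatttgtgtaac
Of all members, 49 were at least 95% identical to another member over the coding sequence, and 44 shared a run of at least 100 bases with another. The sources used here do not say how reads that match several segments were counted, so values of near-identical pairs are uncertain. Such pairs among the segments described here include Igkv1-110 with Igkv1-117 (97.2% identical), Igkv3-12 with Igkv3-7 (96.7%), Igkv17-121 with Igkv17-127 (97.5%), Igkv13-84 with Igkv13-85 (96.3%), Igkv5-43 with Igkv5-45 (98.6%) and Igkv4-59 with Igkv4-70 (97.4%).

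Libraries held between 33157236 and 44540888 counts in nodes and between 32117478 and 40968494 in tumours. The whole-node Jag1 level was 27.8, 20.7 and 23.8 counts per 1000000 (CPM) in the Foxp3ΔJag1 nodes, against 22.001, 23.2 and 24.4 CPM in the Foxp3Ctrl nodes (edgeR log2 fold change 0.03 ± 0.11 (SE), adjusted p = 0.984). Jag1 is made by many cells that lack Foxp3, so this level does not check the deletion. Foxp3 was at 23.8, 17.8 and 17.5 CPM in the Foxp3ΔJag1 nodes and at 12.2, 17.9 and 18.0 CPM in the Foxp3Ctrl nodes. B cell identity of the tissue was plain in every node, with Cd79a, a subunit of the B cell receptor complex, between 757 and 803 CPM in Foxp3ΔJag1 nodes and between 734 and 840 CPM in Foxp3Ctrl nodes. The epithelial markers were lower in all 3 Foxp3ΔJag1 nodes (summed level of 7 genes 7.84 to 11.1 CPM) than in the Foxp3Ctrl nodes (13.4 to 139.6 CPM), Foxp3Ctrl node 3 being the highest. Summed adipocyte markers (20.6 to 251 CPM in Foxp3ΔJag1, 20.7 to 199 CPM in Foxp3Ctrl) and melanoma markers (5.70 to 9.19 CPM in Foxp3ΔJag1, 4.203 to 24.8 CPM in Foxp3Ctrl) overlapped. The part of these tissues in the results on the light chains was not tested.

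Light chain V transcripts were abundant and their level varied most among the Foxp3Ctrl nodes. The summed level of all members was 2760, 2467 and 2251 CPM in the Foxp3ΔJag1 nodes, against 4425, 5343 and 1637 CPM in the Foxp3Ctrl nodes. The groups overlapped: Foxp3Ctrl nodes 1 and 2 lay above every Foxp3ΔJag1 node, and Foxp3Ctrl node 3 lay below all of them. The group means were 2493 ± 255 CPM in Foxp3ΔJag1 and 3802 ± 1930 CPM in Foxp3Ctrl nodes (SD, n = 3 each), a log2 ratio of -0.61 that was -0.97 without Foxp3Ctrl node 3 and -0.28 without Foxp3Ctrl node 2. Igkc, the kappa constant gene, followed the same order of nodes, at 4078, 3735 and 2738 CPM in Foxp3ΔJag1 nodes and 4552, 6962 and 1932 CPM in Foxp3Ctrl nodes. Of 12 light chain constant and joining genes tested, 2 had a log2 fold change above 0 and 10 below it, none past the test. The log2 fold change of Igkc was -0.39 ± 0.52 (SE), with an adjusted p of 0.956 by edgeR's quasi-likelihood test.

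The summed level of 13 plasma cell genes had the same low and high nodes. It was 1822, 1474 and 1414 CPM in the Foxp3ΔJag1 nodes, against 2380, 2375 and 1156 CPM in the Foxp3Ctrl nodes. The groups overlapped, with Foxp3Ctrl node 3 the lowest of all. All 13 had a log2 fold change below 0 with a median of -0.37, beside 9436 of all 18440 genes tested below 0. The 13 genes were read from the same 6 nodes, so their signs are not separate observations, and 0 of 13 passed the test. Jchain, which links antibody polymers, was at 853, 576 and 586 CPM in Foxp3ΔJag1 nodes and 1141, 1081 and 424 CPM in Foxp3Ctrl nodes, and Xbp1, a driver of the secretory programme, was at 224, 211 and 180 CPM in Foxp3ΔJag1 nodes and 290, 354 and 155 CPM in Foxp3Ctrl nodes. The 15 mature B cell genes varied far less, with a summed level of 6302, 6815 and 6431 CPM in Foxp3ΔJag1 nodes and 6728, 6014 and 6445 CPM in Foxp3Ctrl nodes, and 6 of 15 had a log2 fold change above 0 and 9 below it, none past the test. Of 10 germinal centre genes, 8 had a log2 fold change above 0 and 2 below it, none past the test. Of 7 genes of light chain rearrangement and precursor B cells, Vpreb3 was the highest. It was at 10.7, 15.2 and 13.4 CPM in Foxp3ΔJag1 nodes and 14.6, 10.8 and 14.2 CPM in Foxp3Ctrl nodes. Dntt followed, at 3.83, 4.67 and 5.41 CPM in Foxp3ΔJag1 nodes and 4.76, 9.87 and 6.66 CPM in Foxp3Ctrl nodes. Rag1, which cuts V segments for joining, and Vpreb1, a part of the surrogate light chain of precursor B cells, stayed under 1 CPM in every node. In a bulk sample, fewer cells of a type and less RNA per cell cannot be told apart, and the part of the plasma cell genes in the light chain level was not tested.

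**Figure D1:**
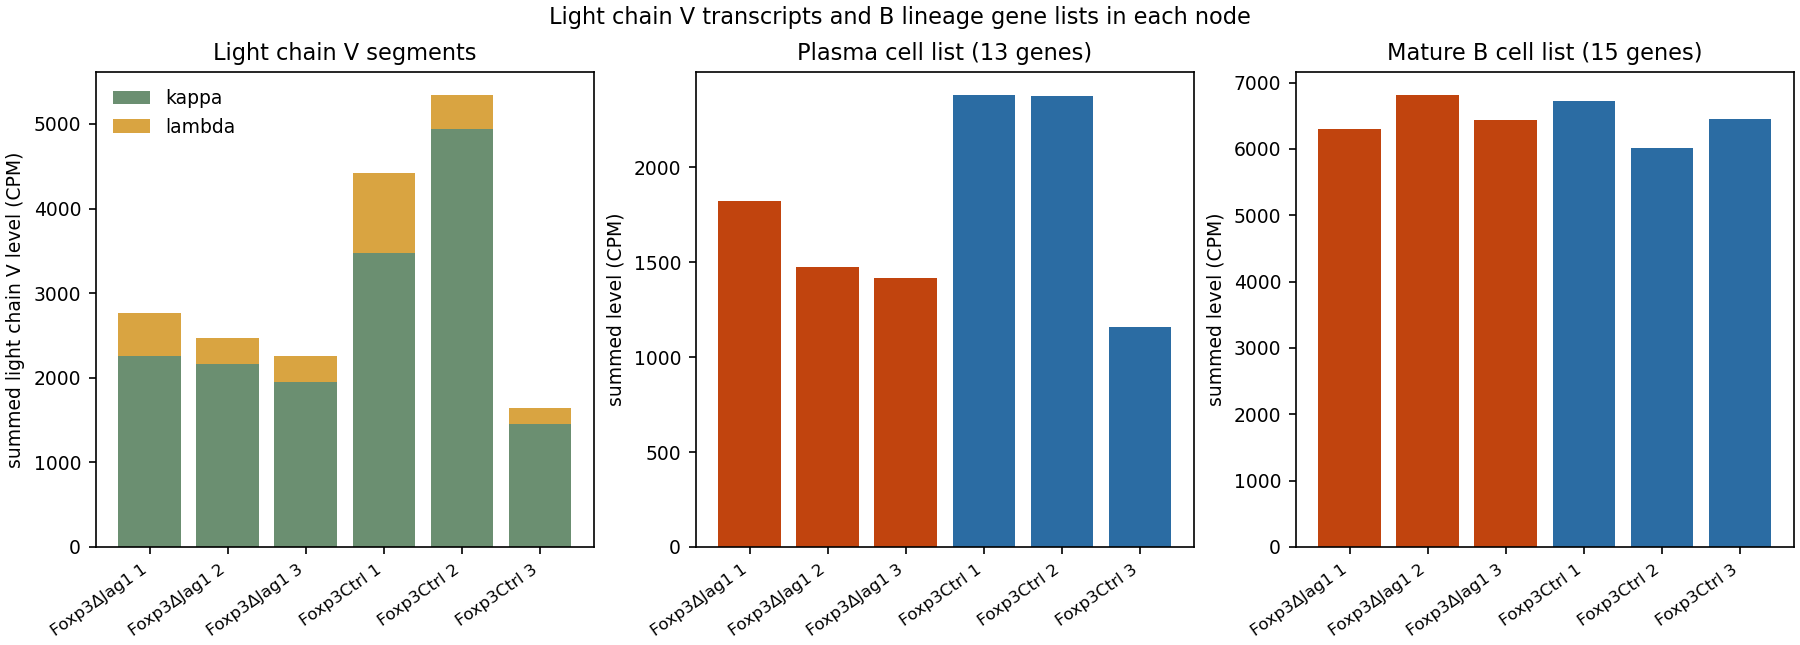
Each bar is 1 node. The left panel stacks the summed level of the kappa and lambda V segments, the middle and right panels give the summed levels of the plasma cell and mature B cell lists, all in CPM on axes that start at 0. Foxp3Ctrl nodes 1 and 2 are the highest and Foxp3Ctrl node 3 the lowest in the left and middle panels, while the 6 bars on the right lie between 6014 and 6815 CPM.

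Lambda segments supplied 18.3, 12.5 and 13.6% of light chain V counts in the Foxp3ΔJag1 nodes, against 21.6, 7.58 and 11.5% in the Foxp3Ctrl nodes. The highest and the lowest node were both Foxp3Ctrl, so the groups overlapped, with means of 14.8 ± 3.07% in Foxp3ΔJag1 and 13.5 ± 7.23% in Foxp3Ctrl nodes (SD, n = 3 each). Counted on the constant genes instead, the lambda share was 16.3, 12.7 and 17.3% in Foxp3ΔJag1 nodes and 21.03, 7.97 and 19.2% in Foxp3Ctrl nodes.

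Among the lambda segments, Iglv1 was the highest in all nodes but 1 and led the whole light chain repertoire in 3 of the 6. Its share was 7.23, 8.20 and 9.41% in the Foxp3ΔJag1 nodes, against 19.0, 6.46 and 7.68% in the Foxp3Ctrl nodes, and its level was 199.7, 202 and 212 CPM in Foxp3ΔJag1 nodes, against 843, 345 and 126 CPM in Foxp3Ctrl nodes. Foxp3Ctrl node 1 stood apart, with 30608 of 160685 light chain V counts from this 1 segment (Wilson 95% interval 18.9 to 19.2%). Iglc1, a constant gene that joins Iglv1, had its highest level in the same node. It was at 180, 191 and 220 CPM in Foxp3ΔJag1 nodes and 692, 266 and 123 CPM in Foxp3Ctrl nodes. The joining segment Iglj1 was also highest in Foxp3Ctrl node 1, at 3.05, 2.80 and 3.21 CPM in Foxp3ΔJag1 nodes and 11.1, 3.37 and 1.83 CPM in Foxp3Ctrl nodes. Neither Iglv1 nor Iglc1 passed the genotype test, with log2 fold changes of -1.14 ± 0.75 and -0.91 ± 0.70 (SE) and an edgeR adjusted p of 0.953 for both.

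Iglv2, though nearly identical to Iglv1 in germline sequence, was high in another node. Its share was 8.49, 0.735 and 1.87% in Foxp3ΔJag1 nodes, against 1.52, 0.42 and 1.19% in Foxp3Ctrl nodes. Foxp3ΔJag1 node 1 alone was high, and the other 2 nodes of that genotype lay within or near the Foxp3Ctrl range. The lambda constant gene Iglc2 was highest in that node too, with 448, 214 and 213 CPM in Foxp3ΔJag1 nodes and 253, 174 and 184 CPM in Foxp3Ctrl nodes. In every other node Iglv2 was at no more than 67.0 CPM, so Iglc2 is not a measure of Iglv2 alone. Iglc2 and Iglc3 are also so alike that their counts are uncertain. The log2 fold change of Iglv2, 1.39 ± 1.20 (SE), did not pass the test (edgeR adjusted p = 0.953), and it was -0.29 without Foxp3ΔJag1 node 1.

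Iglv3 had no single high node. Its level was 70.9, 88.9 and 52.1 CPM in Foxp3ΔJag1 nodes, against 45.4, 37.2 and 42.4 CPM in Foxp3Ctrl nodes, and the groups did not overlap. Its share, 2.57, 3.61 and 2.31% in Foxp3ΔJag1 nodes and 1.03, 0.696 and 2.59% in Foxp3Ctrl nodes, did overlap in Foxp3Ctrl node 3, the node with the fewest light chain V counts. The log2 fold change was 0.74 ± 0.19 (SE) with an unadjusted p of 0.00545 and an adjusted p of 0.953 by edgeR, whereas DESeq2 gave 0.74 with an adjusted p of 0.0189.

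**Figure D2:**
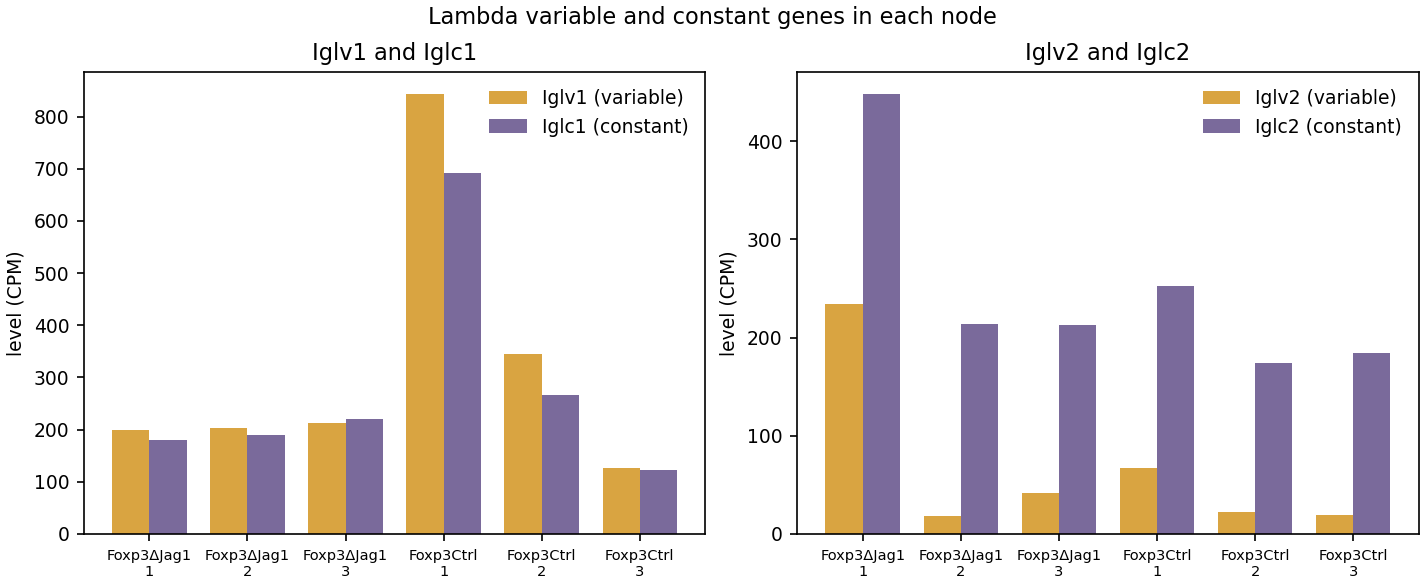
Each pair of bars is 1 node, with the level of a lambda V segment beside that of a lambda constant gene, in CPM. Iglv1 and Iglc1 are both highest in Foxp3Ctrl node 1 (843 and 692 CPM), and Iglv2 and Iglc2 are both highest in Foxp3ΔJag1 node 1 (234 and 448 CPM).

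A few segments held a large part of the counts, and the leading one differed between nodes. The leading segment was Iglv2, Igkv5-43 and Iglv1 in Foxp3ΔJag1 nodes 1, 2 and 3, and Iglv1, Igkv3-2 and Iglv1 in Foxp3Ctrl nodes 1, 2 and 3. The 13 segments with the highest mean share held 50% of the counts, 48 had a mean share of at least 0.5% and 25 lay under 0.1%. Annotated exon lengths were between 338 and 501 bases, and 8 of the leading 10 segments were also among the leading 10 when counts were divided by length. Igkv3-2, the kappa segment with the highest mean share, had 5.38, 7.96 and 7.98% in Foxp3ΔJag1 nodes, against 1.64, 17.5 and 3.59% in Foxp3Ctrl nodes. Foxp3Ctrl nodes 1 and 3 were its lowest and Foxp3Ctrl node 2 its highest, so all 3 Foxp3ΔJag1 nodes lay between them.

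Igkv3-12 and Igkv10-96 were the 2 leading kappa segments whose shares in the 2 genotypes did not overlap. Igkv3-12 had 1.26, 0.642 and 2.13% in Foxp3ΔJag1 nodes, against 12.9, 3.87 and 2.85% in Foxp3Ctrl nodes. It was lower in every Foxp3ΔJag1 node, but Foxp3Ctrl node 1 alone gave most of the gap. In CPM the groups overlapped, with 34.9, 15.8 and 48.05 CPM in Foxp3ΔJag1 and 569, 207 and 46.6 CPM in Foxp3Ctrl nodes, and the log2 fold change of -3.10 ± 1.12 (SE) had an edgeR adjusted p of 0.953. Igkv10-96 had 2.90, 4.44 and 4.28% in Foxp3ΔJag1 nodes, against 5.07, 6.38 and 7.33% in Foxp3Ctrl nodes. Its level was 80.0, 109.6 and 96.4 CPM in Foxp3ΔJag1 nodes, against 224, 341 and 119.97 CPM in Foxp3Ctrl nodes, so that it was lower in Foxp3ΔJag1 on both scales with none of the nodes overlapping. The log2 fold change of Igkv10-96 was -1.29 ± 0.44 (SE), with an unadjusted p of 0.0333 and an adjusted p of 0.953 by edgeR.

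Of the other segments among the leading 10 by mean share, every one overlapped between the genotypes. Igkv6-23 had 4.16, 3.28 and 1.78% in Foxp3ΔJag1 nodes, against 5.57, 3.07 and 5.15% in Foxp3Ctrl nodes. Igkv8-30 had 1.97, 4.02 and 4.67% in Foxp3ΔJag1 nodes, against 1.40, 3.59 and 5.58% in Foxp3Ctrl nodes. Igkv19-93 was high in 1 node of each genotype, with 6.07, 1.40 and 2.12% in Foxp3ΔJag1 nodes and 7.38, 1.61 and 2.16% in Foxp3Ctrl nodes. Igkv1-117 (1.496 to 3.50% in Foxp3ΔJag1, 1.31 to 4.16% in Foxp3Ctrl) and Igkv6-17 (1.77 to 3.18% in Foxp3ΔJag1, 1.15 to 3.36% in Foxp3Ctrl) had no single high node.

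**Figure D3:**
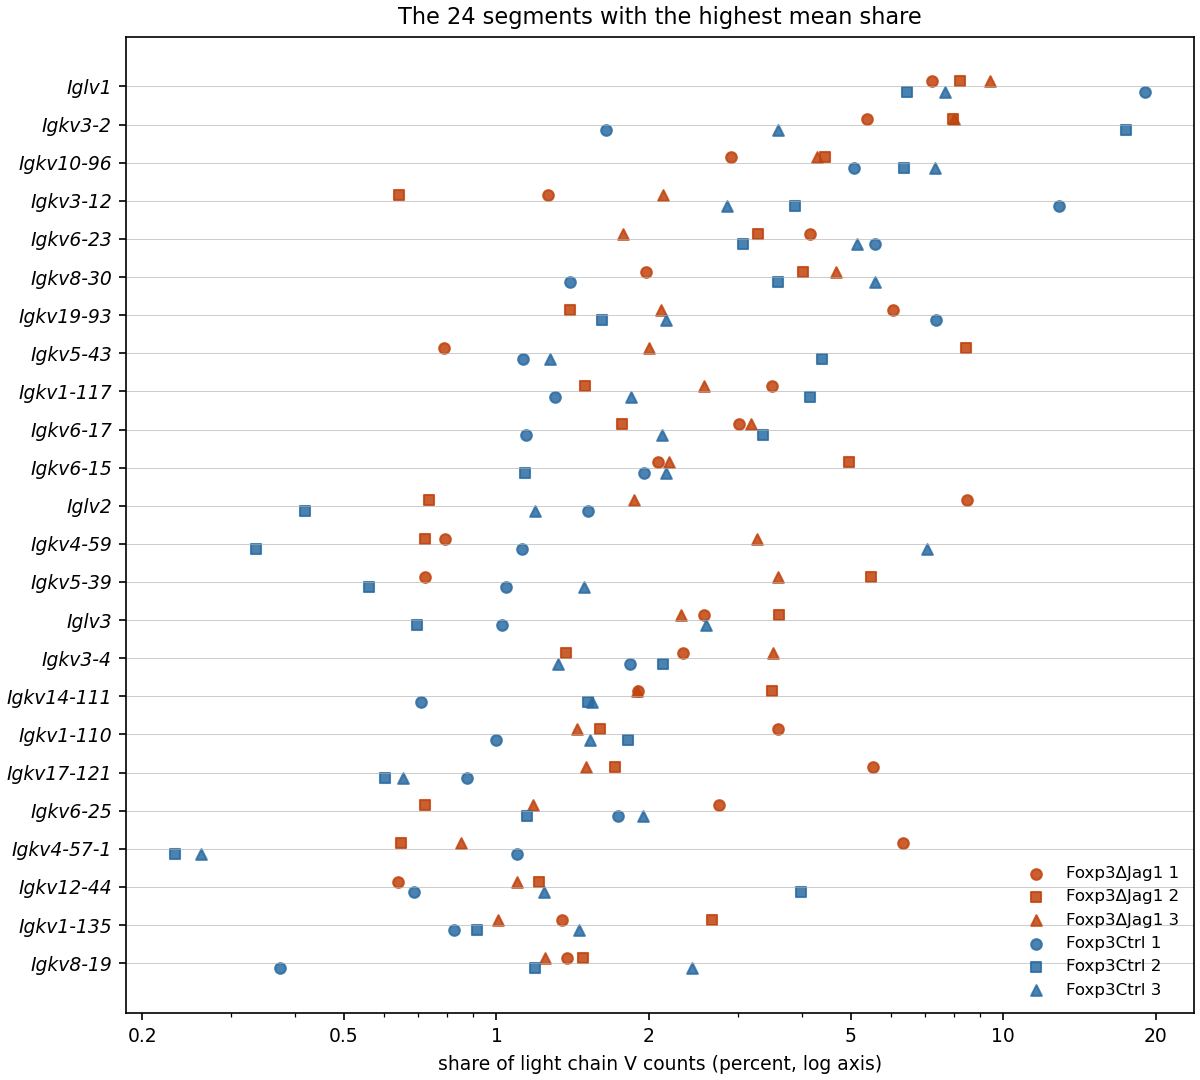
The share of light chain V counts on a log axis is plotted for the 24 segments with the highest mean share, with 1 symbol per node and the Foxp3ΔJag1 symbols above the Foxp3Ctrl ones. Single nodes stand to the right for Iglv1 and Igkv3-12 (Foxp3Ctrl node 1), Igkv3-2 (Foxp3Ctrl node 2), and Iglv2, Igkv17-121 and Igkv4-57-1 (Foxp3ΔJag1 node 1).

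Segments with a far higher share in 1 node than in the others were found in both genotypes. Among segments with a mean share of at least 0.5%, the ratio of the highest node to the median of the other 5 nodes was largest for Igkv4-57-1, at 9.78, and Iglv2, described above, had a ratio of 7.11. Igkv4-57-1 had 6.33, 0.648 and 0.852% in Foxp3ΔJag1 nodes, against 1.10, 0.232 and 0.262% in Foxp3Ctrl nodes. Foxp3ΔJag1 node 1 was alone in its height, and without it the log2 fold change of 1.64 turned to -0.33. Igkv4-59, with a ratio of 8.93, had 0.791, 0.723 and 3.26% in Foxp3ΔJag1 nodes, against 1.12, 0.335 and 7.07% in Foxp3Ctrl nodes, so node 3 of each genotype was its highest. Igkv5-43, with a ratio of 6.63, had 0.79, 8.46 and 2.00% in Foxp3ΔJag1 nodes, against 1.13, 4.39 and 1.27% in Foxp3Ctrl nodes. Node 2 of each genotype was highest here, and the labels do not say whether the numbers pair the nodes. Igkv5-45, which is 98.6% identical to Igkv5-43, stayed at or below 0.226% in every node.

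Igkv17-121 had a ratio of 6.32 and, unlike the others in this group, did not overlap between the genotypes. Its share was 5.54, 1.71 and 1.504% in Foxp3ΔJag1 nodes, against 0.876, 0.603 and 0.655% in Foxp3Ctrl nodes. Its close relative Igkv17-127 lay the other way, with 0.634, 0.747 and 0.755% in Foxp3ΔJag1 nodes and 2.73, 1.35 and 0.853% in Foxp3Ctrl nodes. In CPM Igkv17-121 overlapped, at 153, 42.2 and 33.9 CPM in Foxp3ΔJag1 nodes and 38.7, 32.2 and 10.7 CPM in Foxp3Ctrl nodes, and its log2 fold change of 1.44 ± 0.87 (SE) did not pass the test (edgeR adjusted p = 0.953). Igkv4-71, a low segment chosen after its values were seen, showed the same kind of jump: 3, 3 and 278 counts in Foxp3ΔJag1 nodes and 3, 51 and 5 counts in Foxp3Ctrl nodes.

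Of the 98 members with a mean count of at least 10, the share in the highest node was a median of 4.73 times that in the lowest, more than 3 times for 75 members and more than 10 times for 25. The widest 95% interval of a share in any node was 0.217 percentage points to either side, and for the segments of lowest count the ratio between nodes includes sizeable counting error. Each node was the highest for some segments, namely 15, 15 and 17 in Foxp3ΔJag1 nodes and 12, 14 and 25 in Foxp3Ctrl nodes. Among these 98 members, 44 pairs were at least 95% identical, and both of a pair were highest in the same node in 7 of them (15.9%), beside 803 of the 4753 pairs that the 98 form (16.9%).

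Segment use was spread over fewer segments in 2 Foxp3Ctrl nodes than in the others. The effective number of segments, the exponential of the Shannon entropy, is the number of equally used segments that would be as even as the measured mixture. It was 39.8, 40.2 and 47.4 in Foxp3ΔJag1 nodes, against 30.8, 34.2 and 46.6 in Foxp3Ctrl nodes. Foxp3Ctrl nodes 1 and 2 were the lowest, and Foxp3Ctrl node 3 lay among the Foxp3ΔJag1 nodes, so the groups overlapped, with means of 42.4 ± 4.26 in Foxp3ΔJag1 and 37.2 ± 8.32 in Foxp3Ctrl nodes (SD, n = 3 each). The 10 leading segments of each node held 53.3, 53.9 and 45.1% of counts in Foxp3ΔJag1 nodes, against 59.9, 57.7 and 47.0% in Foxp3Ctrl nodes. When the single highest segment of each node was left out, the difference in effective number between the genotype means was 1.69, compared with 5.21 with it.

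No light chain V segment passed the genotype test. edgeR's quasi-likelihood test, with Benjamini-Hochberg adjustment over 18440 genes, called 7 genes at an adjusted p under 0.05 (0.038% of those tested), of which 6 were higher (0.0325%) and 1 lower (0.00542%) in Foxp3ΔJag1, and 0 of the 96 members tested were among them. The remaining 7 members lay below the filter on low counts. DESeq2 called 70 genes (0.337% of 20791), and 3 members among them: Igkv13-84 (log2 fold change -1.44, adjusted p = 0.00017), Iglv3 (0.74, adjusted p = 0.0189) and Igkv1-99 (-2.79, adjusted p = 0.0358). limma-voom called 0 members. Without Foxp3Ctrl node 3, edgeR called 21 genes, and 3 of these were members (Igkv5-48, Igkv13-84 and Igkv4-86, all lower in Foxp3ΔJag1). Without Foxp3ΔJag1 node 2 it called 16 genes, and 1 of these was a member, Igkv1-99. At an unadjusted edgeR p under 0.05 there were 15 of 96 members (15.6%), 10 lower and 5 higher in Foxp3ΔJag1, beside 3.15% of all genes tested (1.66% lower and 1.49% higher). Log2 fold changes of members lay between -3.34 and 2.09 with 68 of 96 below 0, and their median was -0.45, against -0.0045 for all genes tested.

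The members with the smallest p values in each direction were mostly segments of low share. Igkv13-84, the lowest p of all members, was at 6.35, 6.45 and 6.65 CPM in Foxp3ΔJag1 nodes, against 24.8, 16.3 and 10.2 CPM in Foxp3Ctrl nodes. It was nearly constant in Foxp3ΔJag1 and lower there on both scales without overlap (log2 fold change -1.43 ± 0.31 (SE), unadjusted p = 0.00227 and adjusted p = 0.953 by edgeR). Its relative Igkv13-85 had a log2 fold change of -0.06 ± 1.14 (SE). Igkv1-99 was at 0.625, 2.96 and 0.943 CPM in Foxp3ΔJag1 nodes, against 6.47, 12.8 and 11.4 CPM in Foxp3Ctrl nodes, again without overlap, and had a log2 fold change of -2.80 ± 0.62 (SE). Below these on the lower side were Igkv4-62, Igkv9-123 and Igkv4-51, with log2 fold changes of -2.19, -1.56 and -0.97 and no more than 3.10 CPM in any node. On the higher side, after Iglv3, came Igkv9-129, Igkv12-38, Igkv2-112 and Igkv6-14, with log2 fold changes of 2.09, 1.43, 1.76 and 0.95. Igkv9-129 was at 1.48, 2.77 and 9.88 CPM in Foxp3ΔJag1 nodes, against 0.991, 1.35 and 0.931 CPM in Foxp3Ctrl nodes. Igkv12-38 was at 6.90, 2.93 and 2.16 CPM in Foxp3ΔJag1 nodes, against 1.32, 2.23 and 0.733 CPM in Foxp3Ctrl nodes. With 1 node left out, the log2 fold change ranged from 0.94 to 2.51 for Igkv9-129 and from 0.79 to 1.94 for Igkv12-38. Igkv2-112, the most abundant of these 4 by mean share, had 14.6, 29.1 and 6.20 CPM in Foxp3ΔJag1 nodes, against 4.98, 6.62 and 2.79 CPM in Foxp3Ctrl nodes, so its lowest Foxp3ΔJag1 node lay inside the Foxp3Ctrl range.

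On the CPM scale, the groups did not overlap for 8 of 96 members tested (8.33%), 6 lower and 2 higher in Foxp3ΔJag1, while 7.29% of all genes tested did not overlap (3.18% lower and 4.11% higher). On the share scale, which removes the summed light chain level of each node, 14 of 98 members did not overlap (14.3%), 9 lower and 5 higher in Foxp3ΔJag1. For heavy chain V segments, treated the same way, the count was 21 of 98 (21.4%), and for T cell receptor V segments it was 5 of 85 (5.88%). The 5 higher segments were Igkv14-111, Igkv17-121, Igkv2-137, Igkv2-112 and Igkv12-38, and the 9 lower ones were Igkv10-96, Igkv3-12, Igkv3-7, Igkv17-127, Igkv4-55, Igkv5-48, Igkv13-84, Igkv1-99 and Igkv4-86. Igkv5-48 was at 8.98, 8.87 and 8.80 CPM in Foxp3ΔJag1 nodes, against 48.8, 37.0 and 10.8 CPM in Foxp3Ctrl nodes, and was lower on both scales. Igkv3-7 was at 0.432, 0.511 and 0.647% in Foxp3ΔJag1 nodes and at 1.66, 3.75 and 0.675% in Foxp3Ctrl nodes, and its germline relative Igkv3-12 lay the same way. With 3 nodes against 3, an exact 2-sided permutation test of 1 share cannot go below p = 0.1.

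By family, the group of segments that share a first number and similar sequence, Igkv3 had the highest mean share over the 6 nodes (16.9%), followed by the lambda segments (14.2%), Igkv6 (12.2%), Igkv4 (11.6%) and Igkv8 (8.59%). Igkv4 is the largest family, with 26 members. Of 14 families with at least 2 members, 2 did not overlap between the genotypes. That is a proportion similar to the 14 of 98 single segments (14.3%) on the share scale. No genotype difference of families is read from this count. Igkv10 had 3.39, 5.18 and 4.85% in Foxp3ΔJag1 nodes, against 6.27, 6.92 and 8.29% in Foxp3Ctrl nodes, and was also lower in CPM without overlap. Igkv10-96 made up most of it. Igkv2 had 1.84, 2.24 and 1.47% in Foxp3ΔJag1 nodes, against 0.724, 0.90 and 1.19% in Foxp3Ctrl nodes, and overlapped in CPM.

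Along the kappa locus, both genotypes used segments at every distance from the J segments. Divided into 4 sets of 25 segments by distance from Igkj1, the nearest set (18.4 to 583 kb) held 35.6, 34.0 and 38.7% of kappa V counts in Foxp3ΔJag1 nodes, against 43.3, 44.5 and 35.5% in Foxp3Ctrl nodes. The farthest set (2180 to 3166 kb) held 28.2, 20.3 and 19.5% in Foxp3ΔJag1 nodes, against 13.8, 16.7 and 17.1% in Foxp3Ctrl nodes. The groups overlapped for the nearest set and did not overlap for the farthest, which was higher in every Foxp3ΔJag1 node. In the farthest set, only segments with a mean count of at least 10 were compared one by one. The shares of 4 of them (Igkv17-121 among them) were higher in Foxp3ΔJag1 without overlap. Those of 2 (Igkv17-127 and Igkv1-99) were lower without overlap, and those of 17 overlapped. Among all members with such counts, 14.3% did not overlap in either direction. Igkv17-121, 1 of the 4 higher segments, was left out after the data were seen. The farthest set then held 23.0, 18.7 and 18.1% in Foxp3ΔJag1 nodes, against 12.8, 16.2 and 16.5% in Foxp3Ctrl nodes, without overlap. The other higher segments remained in the set, and a segment high in another set lowers the share of this one. This step is therefore no independent check. The sets in between overlapped. Segments on the strand opposite to the J segments, which join by inversion of the DNA between, numbered 62 and held 51.5, 61.0 and 56.5% of kappa V counts in Foxp3ΔJag1 nodes, against 57.7, 46.9 and 65.9% in Foxp3Ctrl nodes, with the groups overlapping.

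**Figure D4:**
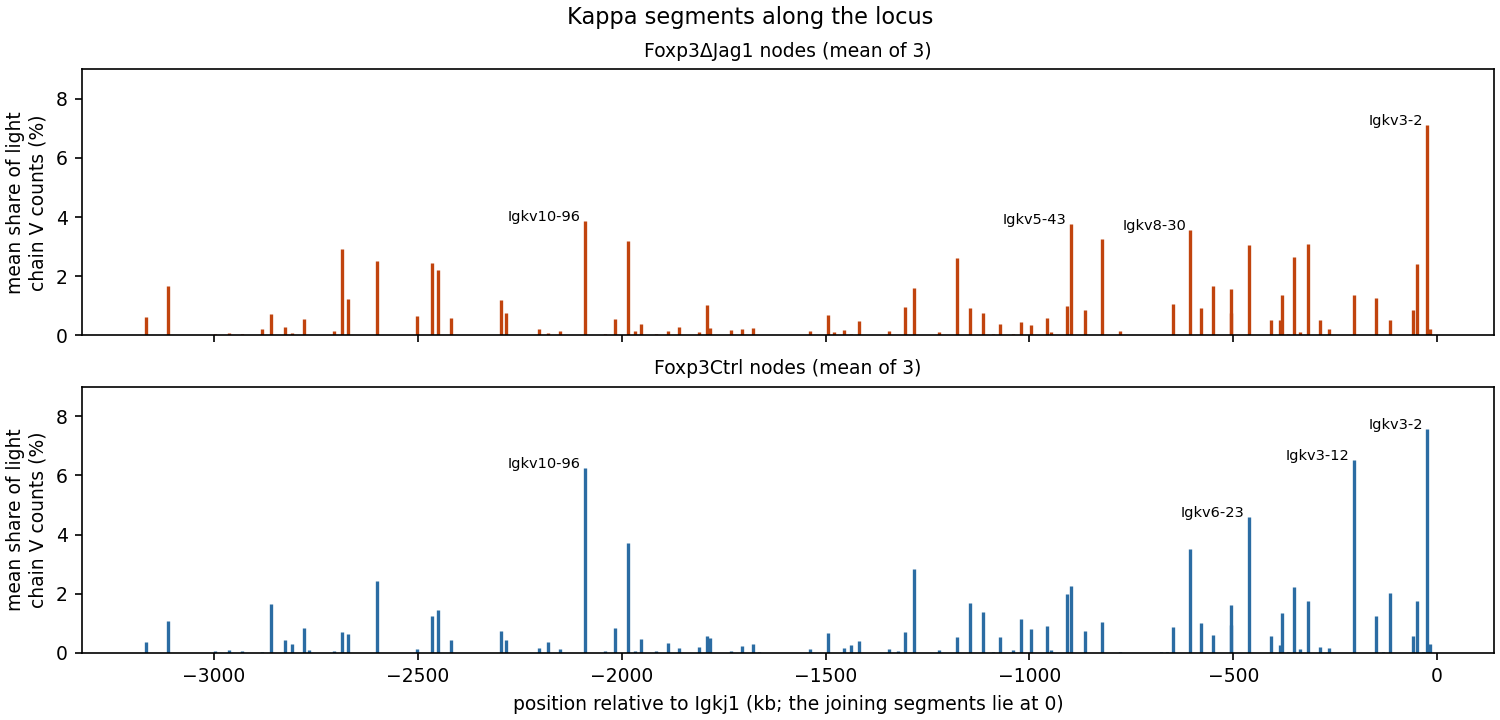
Each line is 1 kappa segment at its distance from Igkj1 in kb, and its height is the mean share of light chain V counts over the 3 nodes of the genotype named above the panel, with the 4 highest labelled. Igkv3-2 is the highest in both panels (7.11% in Foxp3ΔJag1 and 7.56% in Foxp3Ctrl), and Igkv3-12 is labelled in the Foxp3Ctrl panel alone.

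Differences in light chain V use among nodes of 1 genotype overlapped with those between the genotypes. The dissimilarity of a pair of nodes, the percentage of counts that would have to move to another segment to make their shares equal, was 26.2 to 37.9% within Foxp3ΔJag1, 35.5 to 42.6% within Foxp3Ctrl and 26.4 to 46.6% between the genotypes. Heavy chain V segments gave 34.0 to 43.1% within Foxp3ΔJag1, 39.5 to 49.9% within Foxp3Ctrl and 40.7 to 52.9% between them. T cell receptor V segments, read from T cells of the same nodes, lay between 5.92 and 9.48% for all pairs. The median biological coefficient of variation from the edgeR fit was 51.6% for light chain V segments, 62.1% for heavy chain V, 22.4% for T cell receptor V and 16.6% for all genes tested. No test of these differences between gene sets was made, and T cell receptor V transcripts had lower counts (summed level 228 ± 12.9 CPM in Foxp3ΔJag1 and 216 ± 39.6 CPM in Foxp3Ctrl nodes, SD, n = 3 each). The rank order of light chain segments was nevertheless much the same in all nodes, with a Spearman rho of 0.82 to 0.89 across segments for the 15 pairs of nodes, which share the germline segments and their lengths.

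**Figure D5:**
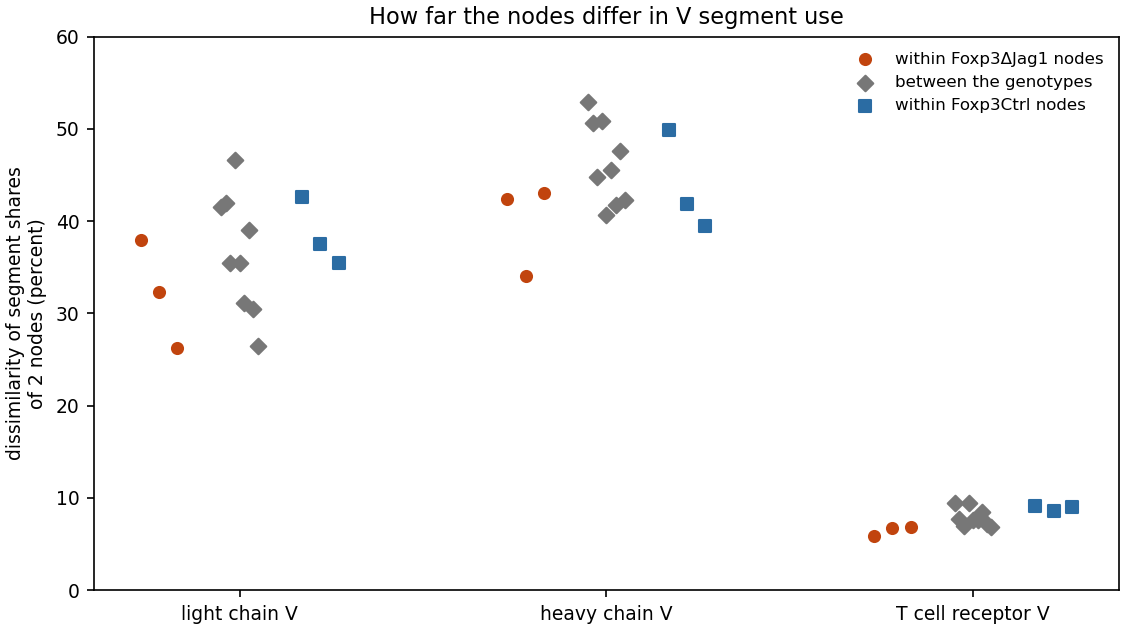
Each symbol is a pair of nodes, placed by the dissimilarity of their V segment shares in percent, for light chain, heavy chain and T cell receptor V segments. Pairs within Foxp3ΔJag1, between the genotypes and within Foxp3Ctrl overlap for light chain V (26.2 to 46.6%), and all T cell receptor V pairs lie below 10%.

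The Foxp3Ctrl tumours held little light chain transcript. The summed level was 1.04, 3.25 and 2.24 CPM in tumours 1, 2 and 3, against 4425, 5343 and 1637 CPM in the Foxp3Ctrl nodes that carry the same mouse codes in their library names. These are 39, 133 and 72 counts in all, from 28, 39 and 14 segments. Tumour 1 was led by Igkv1-110, with 6 of 39 counts (15.4%, Wilson 95% interval 7.25 to 29.7%), followed by Igkv4-61 with 3. Tumour 2 was led by Igkv19-93, with 30 of 133 counts (22.6%, interval 16.3 to 30.4%), while the node of that mouse had 1.61%. Tumour 3 had 23 of 72 counts each from Igkv4-59 and Igkv12-46 (31.9%, interval 22.3 to 43.4%). The node of the third mouse had the highest Igkv4-59 share of any node (7.07%), and its Igkv12-46 share was 1.16%. Intervals cover counting error only. Mature B cell markers were also low in the tumours, with Cd79a between 0.708 and 0.747 CPM.

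Of the 103 members, 101 had at least 1 count in every node. The 2 that did not were Igkv1-131, with 0, 5 and 1 counts in Foxp3ΔJag1 nodes and 3, 2 and 0 in Foxp3Ctrl nodes, and Igkv1-35, with 1 count in all. The other members below the filter were Igkv4-71, given above, and Igkv18-36, Igkv8-26, Igkv5-37 and Igkv20-101-2, and each of these last 4 had between 2 and 64 counts a node.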

How the data were processed

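RNA of whole nodes and whole tumours was sequenced in bulk. The authors deposited raw read counts for each gene as whole numbers, 1 table per tissue. The submitters' processing notes name Subread 1.5.2 with featureCounts, STAR 2.5.2b, Trimmomatic 0.36 and GRCm38. Annotation, strand setting and the treatment of multiply mapping reads: not given in the sources used here. In addition, the labels' protocols name both poly(A) enrichment and ribosomal RNA depletion. Of 49315 identifiers, 49056 matched GENCODE M21, the source of symbols, gene types, positions and germline sequences. The 60 light chain V rows typed as pseudogenes were left out.

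The labels describe 13 samples and 9 libraries were used. A further 3 columns of the tumour table match no labelled sample and were not used, and Foxp3ΔJag1 tumours were not analysed here. Replicates differed by far more than sampling noise (chi-square per degree of freedom 18.8 to 83.6). The labels do not say that replicates of a group are separate animals beyond their library names, so p-values measure the spread between these samples.

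CPM used total counts. Shares are percentages of summed light chain V counts, with Wilson 95% intervals for counting error. Genes were tested in the 6 nodes in R 4.3.3 with edgeR 4.0.16, by its quasi-likelihood test (TMM, filterByExpr, robust dispersion, Benjamini-Hochberg adjustment over all genes tested, FDR 0.05), and standard errors were derived from each coefficient and its F value. Alternatives were DESeq2 1.42.0, limma-voom (limma 3.58.1), other scalings and filters, a replicate block and leaving out each node. Germline sequences were aligned with Biopython 1.88. The edgeR fit was also run on simulated counts, with changed genes drawn from all genes rather than from the light chain V segments. That run does not measure the power to call these segments. Same-numbered nodes deviated from their group means with correlations of -0.165, 0.034 and -0.124. Nodes with different numbers gave -0.024 to 0.189. The labels do not say that the numbers pair the nodes, and these correlations cannot decide it.

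The members and gene lists were chosen with earlier results of these data known. Segments were named by rule: all lambda segments, the 10 with the highest mean share, called members and the 5 with the smallest p in each direction, the 5 with a mean share of at least 0.5% that most exceeded in 1 node the median of the other 5, and the 2 highest of each tumour. Lists were named by at most 4 members. Segments whose groups did not overlap, close relatives of named segments and Igkv4-71 were named after their values were seen. Leaving Igkv17-121 out of the farthest kappa set was also chosen after the data were seen.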

Additional observations from a re-analysis of the deposited data

How the results depend on the processing

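The number of genes called between Foxp3ΔJag1 and Foxp3Ctrl nodes was 7, and it was 70 with DESeq2, 16 without a filter on low counts, 11 with the replicate block and 6 to 21 when 1 node was left out. Light chain V members called, 0 in the edgeR fit, were 3 with DESeq2, 2 with the replicate block (Igkv1-99, adjusted p = 0.0385, and Igkv6-23, adjusted p = 0.00566) and 0 to 3 when 1 node was left out. The labels do not say that the replicate numbers used in that block pair the nodes, and the correlations of same-numbered nodes cannot decide it. The 14 segments whose shares did not overlap became 8 in CPM and 19 to 35 when 1 node was left out, which leaves fewer nodes to overlap, and the 2 families became 1 in CPM and 2 to 6 when 1 node was left out. Log2 fold changes that turned sign were those of Igkv3-2 (-1.07, against 0.10 with limma-voom and 0.22 with the replicate block), Igkv1-110 (-0.0031, against 0.0379 with library size only, 0.0367 with limma-voom, 0.0152 with a filter of 1 CPM in 3 libraries and 0.0751 with the replicate block) and Igkv4-61 (0.24, against -0.66 with limma-voom and -0.57 with the replicate block). The cause was not tested.

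With 1 node left out, the log2 fold change ranged from -1.58 to 1.40 for Igkv3-2, -0.75 to 0.17 for Igkv8-30, -1.89 to 0.40 for Igkv19-93, -1.66 to 1.36 for Igkv5-43, -1.19 to 0.51 for Igkv1-117, -0.86 to 0.62 for Igkv6-17, -0.29 to 2.19 for Iglv2, -1.61 to 0.12 for Igkv4-59, -0.66 to 0.70 for Igkv1-110, -0.33 to 3.01 for Igkv4-57-1 and -1.43 to 0.74 for Igkv4-61. The log2 ratio of the summed level ranged from -0.97 to -0.28, and the difference in lambda share from -1.72 to 5.29 percentage points, with -0.64 by constant genes. There were 3 nodes a genotype, and segments with few counts a node carry counting error as well. The median biological coefficient of variation of the members was 51.6%. Large differences also went uncalled, such as the log2 fold change of -3.10 for Igkv3-12 (edgeR adjusted p = 0.953). A member that was not called may therefore still differ between the genotypes, by a small or a large amount.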
